A study of Mus musculus with 2 samples.

Results

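The cells described here are lung fibroblasts with a high level of Ccl19, a chemokine. A cell was a member when it had at least 500 detected genes, at most 10% mitochondrial counts, a deposited class other than pericytes, and a Ccl19 value of at least 9 on the deposited log2 scale, which equals 511 CPM, the counts of a gene relative to all counts of its cell. The rule gave 733 cells of the 15986 deposited in both tables. Of these, 275 came from the high-fat library (HFD, 6971 deposited cells) and 458 from the normal-chow library (NC, 9015 deposited cells). They are called Ccl19-high cells below, and they were compared with the 4613 HFD and 6504 NC cells of the same classes in which Ccl19 had the value 0, called Ccl19-zero cells. The members were chosen by their measured Ccl19 value, so the levels of Ccl19 and of the genes that share its reads are a description only.

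CCL19 is a secreted chemokine that binds the receptor CCR7 on naive T cells and mature dendritic cells. In lymph nodes and spleen it is made by fibroblastic reticular cells of the T cell zone, together with CCL21. In the inflamed lung, stromal cells of the lymphoid aggregates that form there can also make it.

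Both libraries were made from fibroblastic stroma of the lung of C57Bl/6J mice, an inbred laboratory strain. The mice had been fed for 16 weeks with a high fat diet (HFD) or with normal chow (NC). Each diet had 1 library, made with a droplet-based 3′ kit, and the number of animals behind it is not stated. With 1 library per diet no test between diets was possible, and cells of 1 library are not replicates. "Higher" or "lower" therefore refers to size alone, at least 1.5-fold up or down, and each interval is an exact 95% interval for counting error only.

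The label was checked against its 4 markers. In the Ccl19-high cells, Apoe had a count in 95.6% of NC and 96.0% of HFD cells, Inmt in 82.1% and 86.2%, and Tmem176a in 79.3% and 76.7%. All 3 were also detected in most Ccl19-zero cells, at 92.7% and 92.7% for Apoe, 84.6% and 84.4% for Inmt, and 71.4% and 68.7% for Tmem176a after weighting to the same classes. The 3 markers were thus shared by the selected cells and the Ccl19-zero cells of the same classes. Inmt was not general to all classes. Among Ccl19-high myofibroblasts it was in 16.7% of NC and 29.8% of HFD cells, at 150 and 144 CPM. Ccl19-zero myofibroblasts had 190 and 214 CPM, and Ccl19-high Asc1 fibroblasts 5582 and 6815. The level of Ccl19 within the cells was modest. The median Ccl19-high cell held 7 Ccl19 counts in HFD and 6 in NC, 67 HFD and 90 NC cells held at least 10, and 2 and 3 cells held at least 50. The median log2 value was 9.61 in HFD and 9.73 in NC, with a maximum of 12.69 and 12.70. The values nearest to the threshold were 9.00168 inside and 8.99409 outside in HFD, and 9.0004 inside and 8.99751 outside in NC.

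Part of the Ccl19 signal was shared with other gene entries. The unnamed gene ENSMUSG00000121463 had counts in 98.9% of HFD and 98.7% of NC Ccl19-high cells, in amounts of 94.5% and 88.3% of those of Ccl19. It was also detected in 186 HFD and 223 NC cells counted here as Ccl19-zero, which were 4.03% and 3.43% of them. Gm2564, Ccl19-ps3 and Gm12407 had counts in 60.7% to 76.9% of the Ccl19-high cells and in at most 0.0461% of Ccl19-zero cells. These genes were treated as sharing reads with Ccl19, which was not tested on sequences, and with the pseudogene Ccl19-ps1 the 5 were kept out of every comparison. Ccl21a, which encodes the other CCR7 ligand, was in 0.727% of HFD and 0.437% of NC Ccl19-high cells. Cxcl13, the B cell chemokine of follicular stroma, was in 0.727% and in 0 of 458. In Ccl19-zero cells, weighted to the same classes, Ccl21a was in 0.578% and 0.487% and Cxcl13 in 0.246% and 0.140%. Both genes were seen in at most 2 Ccl19-high cells of a library. Ccl21b, another CCL21 gene, was in 1.82% of HFD and 2.18% of NC Ccl19-high cells. Without weighting it was in 1.37% and 1.52% of Ccl19-zero cells, where Ccl21a was in 0.629% and 0.523%.

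The upstream sequence of Ccl19 is shown first, beside those of Cxcl10 and Cxcl1, chemokine genes that were higher in Ccl19-high cells of both libraries (Cxcl10) or of NC (Cxcl1), because these genes are described together below. The 250 bases before the RefSeq transcript start are given 5′ to 3′ on the strand of the gene (build GRCm38.p6). Ccl19 lies on the minus strand of chromosome 4 (chr4:42756366-42756615), Cxcl10 on the minus strand of chromosome 5 (chr5:92348890-92349139) and Cxcl1 on the plus strand of chromosome 5 (chr5:90890995-90891244). Capitals mark matches to the interferon-stimulated response element (ISRE; GAAA, any 2 bases, GAAA) or to the NF-kB decamer, searched on both strands.
Ccl19: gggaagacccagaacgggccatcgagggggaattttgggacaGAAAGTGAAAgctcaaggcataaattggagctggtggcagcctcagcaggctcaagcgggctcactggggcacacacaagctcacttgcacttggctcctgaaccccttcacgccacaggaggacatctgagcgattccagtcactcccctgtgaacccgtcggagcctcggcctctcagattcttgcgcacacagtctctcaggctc
Cxcl10: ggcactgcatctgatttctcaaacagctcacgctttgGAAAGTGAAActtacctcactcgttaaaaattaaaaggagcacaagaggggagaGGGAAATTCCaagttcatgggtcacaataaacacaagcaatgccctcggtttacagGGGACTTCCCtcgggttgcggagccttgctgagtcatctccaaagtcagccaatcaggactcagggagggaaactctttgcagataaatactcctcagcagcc
Cxcl1: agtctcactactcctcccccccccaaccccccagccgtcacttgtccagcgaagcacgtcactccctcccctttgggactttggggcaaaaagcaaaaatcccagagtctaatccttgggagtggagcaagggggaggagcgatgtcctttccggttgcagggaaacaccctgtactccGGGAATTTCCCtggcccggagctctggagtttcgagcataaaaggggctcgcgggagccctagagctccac

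The ISRE match began 208 bases before the start of Ccl19 and 213 bases before that of Cxcl10. Cxcl10 also held 2 decamers, beginning 159 and 103 bases before its start, and in Cxcl1 the matches on the 2 strands overlapped, beginning 71 and 70 bases before the start. Among 19 genes looked for, 13 had a window in the RefSeq table, of which 3 held an ISRE (Ccl19, Cxcl10 and Saa3) and 4 a decamer (Cxcl10, Cxcl1, Cxcl2 and Tmem176a). The windows searched also take in the first bases of the transcript. Of 27025 mouse genes with such windows, 3.99% held an ISRE and 5.14% a decamer in at least 1 window. A match is a description of the letters and says nothing of binding.

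Ccl19-high cells made up a similar small part of both libraries, and they were most frequent among Pi16 fibroblasts and myofibroblasts. They were 5.80% of NC fibroblasts (458 of 7890, interval 5.30 to 6.34%) and 5.01% of HFD fibroblasts (275 of 5493, 4.44 to 5.62%), and the intervals overlapped. After both libraries were weighted to the same class mix the shares were 5.80% and 5.004%. Among Asc1 fibroblasts, the largest class, 4.65% of NC and 3.85% of HFD cells were members. Among Gas6 fibroblasts the shares were 4.70% and 3.74%. Pi16 fibroblasts, named for a marker of adventitial fibroblasts, had 9.17% and 8.54%, and myofibroblasts had 9.90% and 9.22%. The order of the classes was thus the same under both diets to the extent that the low pair and the high pair did not overlap within either library.

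**Figure D1:**
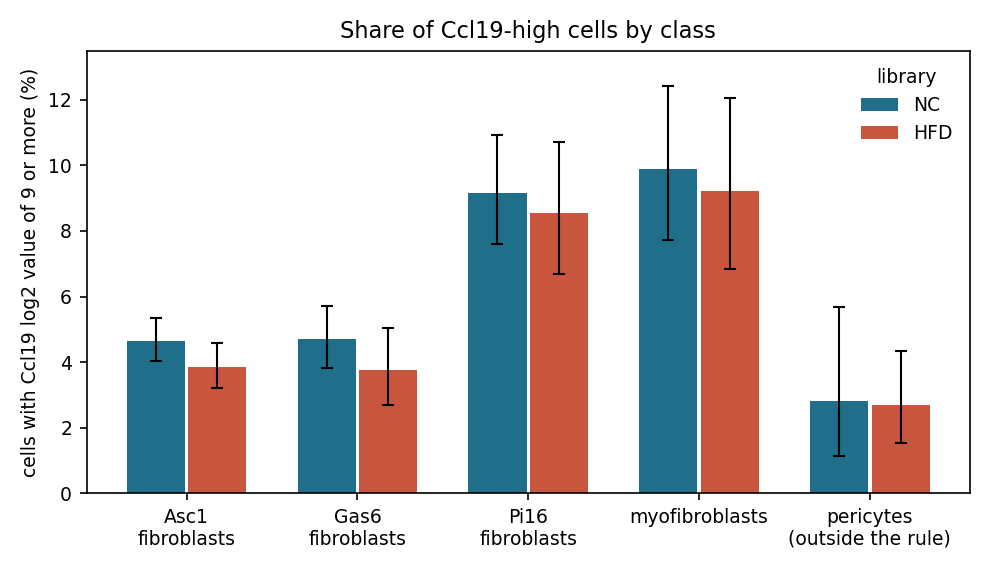
Percentage of cells of each deposited class with a Ccl19 log2 value of at least 9, for the NC and the HFD library; bars are shares and lines are exact Clopper-Pearson 95% intervals. Pi16 fibroblasts and myofibroblasts lie between 8.54% and 9.90%, Asc1 and Gas6 fibroblasts between 3.74% and 4.70%, and the pericyte class, which the rule leaves out, at 2.80% and 2.68%.

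The classes differed in depth, from a median of 4816 counts per cell in NC myofibroblasts to 16128 in HFD Gas6 fibroblasts, and a CPM threshold is passed with fewer counts in a shallow cell. A second measure was therefore the share of cells with any Ccl19 count when every cell was thinned to 3000 counts, which left out 86 HFD and 415 NC shallower cells. That share was 12.4% in NC and 10.5% in HFD, against 17.6% and 16.0% at the cells' own depth. By class it was 8.62% and 7.21% in Asc1, 15.5% and 13.3% in Gas6, 16.6% and 16.6% in Pi16 fibroblasts, and 17.4% and 14.6% in myofibroblasts. The Gas6 class was thus nearer to the Pi16 class on this measure than on the rule itself. The pericyte class, outside the rule, had 10.1% in NC and 10.6% in HFD at the same thinning. The Asc1 share lay below that of the pericytes and the Gas6, Pi16 and myofibroblast shares lay above it. The level of free Ccl19 RNA was not measured. In a finer deposited annotation, 2 of 260 HFD and 13 of 394 NC cells of the SNAT2 fibroblast subset were members.

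Pooled over classes, Ccl19-high cells were close in quality to Ccl19-zero cells. Their median depth was 8768 counts against 9235 in HFD and 6980 against 7189 in NC. They had a median of 1266 against 1349 detected genes in HFD and 1264 against 1311 in NC, and mitochondrial shares of 3.76% against 3.63% and 3.51% against 3.55%. Their ribosomal share was higher, 6.94% against 5.87% in HFD and 6.11% against 5.32% in NC, before any weighting by class. In the Gas6 class the members were shallower, with median depths of 13462 against 16018 counts in HFD and 10609 against 12190.5 in NC. Detected genes there were 1719 against 1957 in HFD and 1678.5 against 1865 in NC. Within classes, 158 of 188 ribosomal protein genes in HFD and 155 of 189 in NC had a ratio above 1, with medians of 0.10 and 0.06 on the log2 scale. The part of these differences in the results below was not tested.

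The cells did not lie together as a group of their own. With principal components computed without Ccl19 and its copies, 7.03% of the 15 nearest neighbours of an HFD Ccl19-high cell were themselves Ccl19-high, and 7.26% in NC. The neighbours of Ccl19-zero cells were Ccl19-high in 4.67% and 4.79% of cases, and the classes of the neighbours alone would give members 5.75% and 6.37%. In HFD 102 of 275 and in NC 171 of 458 Ccl19-high cells had no Ccl19-high neighbour. The share among neighbours was above that given by class over all cells, but not in every class. It was 7.35% against 7.44% for HFD Pi16 fibroblasts and 9.49% against 9.58% for NC myofibroblasts. With 10 components these became 8.73% against 7.66% and 13.2% against 9.63%. The largest excesses at the main setting were 13.3% against 8.99% for HFD myofibroblasts and 11.3% against 8.03% for NC Pi16 fibroblasts. Most neighbours of a member were cells without a high Ccl19 value.

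Against class-matched Ccl19-zero cells, Cxcl10, Ccl7, Ccl11, Timp1, Cfb and Apoc1 were among the genes higher in Ccl19-high cells of both libraries. Pi16 and Fbln2 were among those lower in both. In NC, 125 of 5668 measured genes were higher (2.21%) and 183 lower (3.23%). In HFD, with fewer member cells, 207 of 5699 were higher (3.63%) and 392 lower (6.88%). Of 5307 genes measured in both libraries, 17 were higher in both, 21.25% of the 80 higher in NC and 12.7% of the 134 in HFD. Lower in both were 33 genes, 18.75% of the 176 lower in NC and 8.75% of the 377 in HFD. Of 2514 genes with an average level of at least 50 CPM in both libraries, 5 were higher in both: Cxcl10, Timp1, Ccl7, Ccl11 and Cfb, which were 35.7% of the 14 higher in NC and 25% of the 20 higher in HFD. When the member cell with most counts of the gene was left out, Cxcl10 and Timp1 remained past 1.5-fold in both libraries and the other 3 did not. The NC and HFD ratios were then 1.40 and 1.89 for Ccl7, 1.27 and 1.48 for Ccl11, and 2.06 and 1.44 for Cfb. The 3 lower in both were Pi16, Fndc1 and Lmbrd1, or 17.6% of 17 in NC and 5.17% of 58 in HFD. Fndc1 and Lmbrd1 were named after their values were seen. The same genes were read in both libraries, whose cells do not overlap, although 17 barcodes occurred in both tables, none of them a member.

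**Figure D2:**
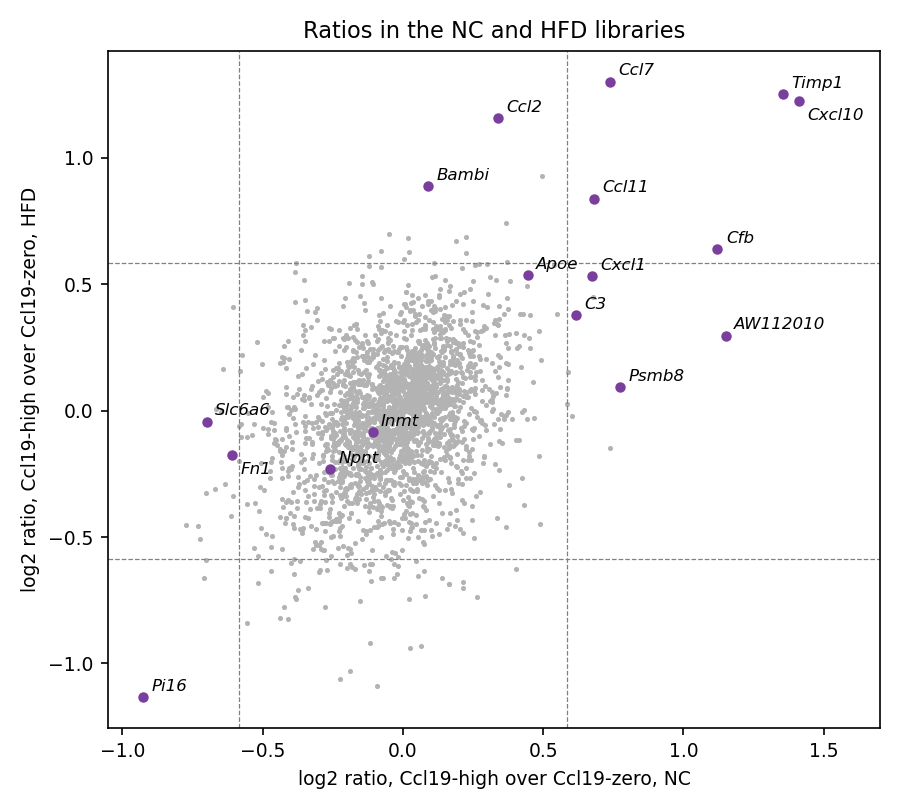
Each point is 1 of 2514 genes with an average of at least 50 CPM in both libraries; the axes give the log2 ratio of Ccl19-high over class-weighted Ccl19-zero cells in NC (horizontal) and HFD (vertical), and dashed lines mark 1.5-fold. Cxcl10, Timp1, Ccl7, Ccl11 and Cfb lie beyond both lines at the top right, and Pi16, Fndc1 and Lmbrd1 lie beyond both at the lower left, Pi16 farthest out.

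Chemokines came first. Cxcl10, which encodes the CXCR3 ligand that draws activated T cells, was at 606 CPM in NC Ccl19-high cells against 228 in Ccl19-zero cells, and at 383 against 164 in HFD. The ratios were 2.66 (2.42 to 2.93) and 2.33 (2.002 to 2.71). Both libraries thus showed a Cxcl10 level more than double that of Ccl19-zero cells, carried by few cells: 99 of 458 NC and 36 of 275 HFD Ccl19-high cells had a count. Without the cell that held most of its counts the ratios were 2.37 and 1.83. By class the NC ratio was 7.76 in Pi16, 4.18 in Gas6 and 1.28 in Asc1 fibroblasts and 1.11 in myofibroblasts. In HFD it was 4.32 in Gas6, 2.71 in Asc1, 2.19 in Pi16 fibroblasts and 0.678 in myofibroblasts. These HFD class ratios rested on single cells. A single cell held 58.0% of the Cxcl10 counts of Gas6 members, 54.9% in Asc1 and 44.2% in Pi16 fibroblasts. The counts came from 9, 13 and 7 cells. Ratios with more than 1 cell left out were not computed.

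The CCR2 and CCR3 ligands were less even. Ccl7, a monocyte chemokine, was at 187 against 112 CPM in NC (ratio 1.67, 1.41 to 1.97) and at 117 against 47.6 in HFD (2.47, 1.85 to 3.24). In NC its excess came from the Pi16 class, where the ratio was 3.92, while it was 0.316 in the Asc1 class and, without the Pi16 class, -0.073 on the log2 scale overall. Ccl2, the main CCR2 ligand, was at 327 against 259 CPM in NC (ratio 1.26) and 366 against 164 in HFD (2.23), where 1 cell held 23.1% of its counts and the ratio without it was 1.72. Ccl11, the eosinophil chemokine eotaxin, was at 181 against 113 CPM in NC (1.60, 1.34 to 1.90) and 159 against 88.8 in HFD (1.79, 1.40 to 2.26). Its highest levels were in Pi16 fibroblasts, at 652 CPM in NC and 516 in HFD members, with ratios of 1.68 and 1.73 there.

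Cxcl1, a neutrophil chemokine, was at 823 against 516 CPM in NC (1.59) and 484 against 335 in HFD (1.45), where its ratio was 0.154 in myofibroblasts. Cxcl12, the CXCR4 ligand that retains lymphocytes in stroma, had ratios of 1.29 and 0.986, and Cxcl14 of 0.952 and 1.31. Of the 4 CCL genes measured, 2 were higher in NC and 3 in HFD, and of 6 CXCL genes 3 were higher in each library, with none lower. The list medians were 0.51 (CCL) and 0.59 (CXCL) in NC and 0.998 and 0.75 in HFD on the log2 scale, beside -0.02 over all genes in each library. The class sums were not uniform: the summed CCL level was below that of Ccl19-zero cells in myofibroblasts of both libraries (ratio 0.669 in NC and 0.618 in HFD) and in NC Asc1 fibroblasts (0.746).

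**Figure D3:**
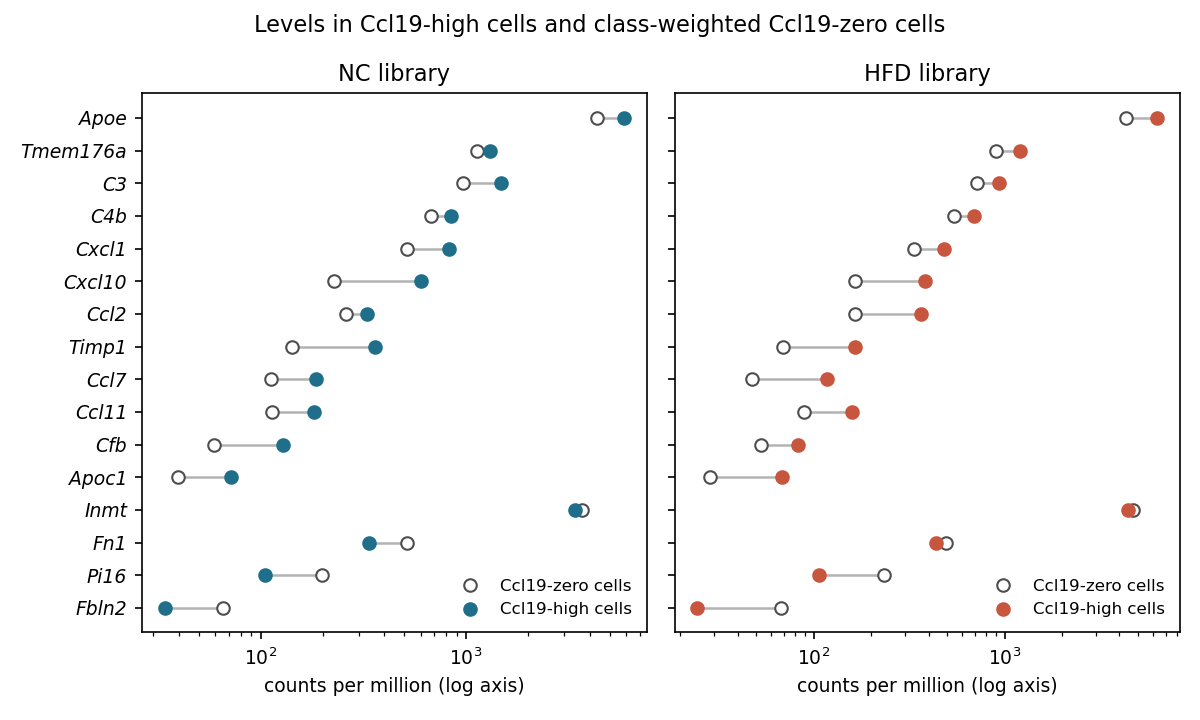
Summed level in CPM (log axis) of 16 genes in Ccl19-high cells (filled) and in Ccl19-zero cells weighted to the same classes (open), NC left and HFD right. The filled point lies to the right for the genes from Apoe to Apoc1 and to the left for Inmt, Fn1, Pi16 and Fbln2 in both libraries.

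Timp1, an inhibitor of matrix metalloproteinases, was at 362 against 141 CPM in NC and 165 against 69.2 in HFD. The ratio was 2.56 (2.26 to 2.89) and 2.38 (1.87 to 3.01), and it was above 1 in all 8 combinations of class and library. The interval included 1 in NC Asc1 fibroblasts and in myofibroblasts of both libraries. Among Ccl19-high myofibroblasts 4 NC and 5 HFD cells had a Timp1 count. In NC 1 Gas6 fibroblast held 27.9% of the Timp1 counts, and without it the ratio was 1.87. In HFD it was 1.98 without the top cell.

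Cfb, factor B of the C3 convertase, was at 129 against 59.3 CPM in NC (2.18, 1.76 to 2.67) and at 82.5 against 53.0 in HFD (1.56, 1.11 to 2.14). C3, its substrate, was at 1479 against 964 in NC (1.53, 1.45 to 1.63, or 1.48 without its top cell) and 934 against 719 in HFD (1.30, 1.18 to 1.43). C4b, of the classical pathway, had a count in 54.8% of NC Ccl19-high against 45.5% of Ccl19-zero cells and in 52.7% against 40.3% in HFD, with level ratios of 1.26 and 1.27. Serping1, the C1 inhibitor, had ratios of 0.992 and 0.945. Of 14 complement genes 3 were higher and 1 lower in NC, and 1 higher and 1 lower in HFD, with medians of 0.14 and -0.04.

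Apoe, the lipoprotein ligand of the LDL receptor family, was at 5878 against 4319 CPM in NC (1.36, 1.32 to 1.40) and 6273 against 4321 in HFD (1.45, 1.40 to 1.51), under the 1.5-fold limit in both. Its ratio was above 1 in all 8 combinations of class and library, from 1.11 in NC Gas6 to 1.93 in NC Pi16 fibroblasts. Apoc1, its neighbour in the genome, was at 71.8 against 39.3 CPM in NC (1.83, 1.38 to 2.38) and 68.4 against 28.7 in HFD (2.38, 1.64 to 3.37). Under the alternatives the log2 ratio of Apoc1 ranged from 0.43 to 1.15 in NC and from 0.17 to 1.33 in HFD. The lowest value of each library was not past 1.5-fold. The cholesterol exporter Abca1 was at 0.890 and 0.888 of the Ccl19-zero level. Tmem176a, a membrane protein gene, was at 1315 against 1133 CPM in NC (1.16) and 1204 against 899 in HFD (1.34), again above 1 in all 8 combinations. Its interval included 1 in NC Gas6 fibroblasts and in myofibroblasts of both libraries. Inmt, an N-methyltransferase of alveolar fibroblasts, was at 3395 against 3660 CPM in NC (0.928, 0.894 to 0.963) and 4442 against 4706 in HFD (0.944, 0.905 to 0.984), and it was just above the Ccl19-zero level under at least 1 alternative in each. The 3 markers given with these cells thus did not move together: Apoe and Tmem176a were above the Ccl19-zero level in both libraries and Inmt was below it.

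The levels were also read by the amount of Ccl19. Cells were placed in 5 bins by their Ccl19 value and weighted to the class mix of the Ccl19-high cells. Apoe went from 4319 CPM at a value of 0 to 4597, 5253, 5558 and 6448 CPM in NC, and from 4321 to 4903, 5199, 6264 and 6329 in HFD. C3 went from 964 CPM to 1069, 1156, 1348 and 1875 in NC, and from 719 to 768, 803, 810 and 1296 in HFD. Timp1 was at 141, 161, 204, 206 and 844 CPM in NC and at 69.2, 103, 102, 139 and 267 in HFD, highest in the last bin of each library, and 1 cell held 27.9% of the NC Timp1 counts of Ccl19-high cells. Inmt was at 3660 CPM at a value of 0 and 2900 in the highest bin in NC, and at 4706 and 4302 in HFD. Some other genes did not rise steadily. Tmem176a went from 1133 CPM to 1172, 1292, 1333 and 1242 in NC, and from 899 to 1017, 968, 1170 and 1255 in HFD. Cxcl10 went from 164 CPM to 215, 97.2, 307 and 596 in HFD, and from 228 to 241, 371, 624 and 598 in NC. In HFD Cfb was at 53.0, 52.0, 37.0, 81.5 and 76.5 CPM and Apoc1 at 28.7, 17.8, 54.8, 79.6 and 32.7. The bins differed in depth, with median totals of 11171 counts in NC cells above 0 and below 8 and 5564 in the highest bin, and the part of depth in these trends was not tested.

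**Figure D4:**
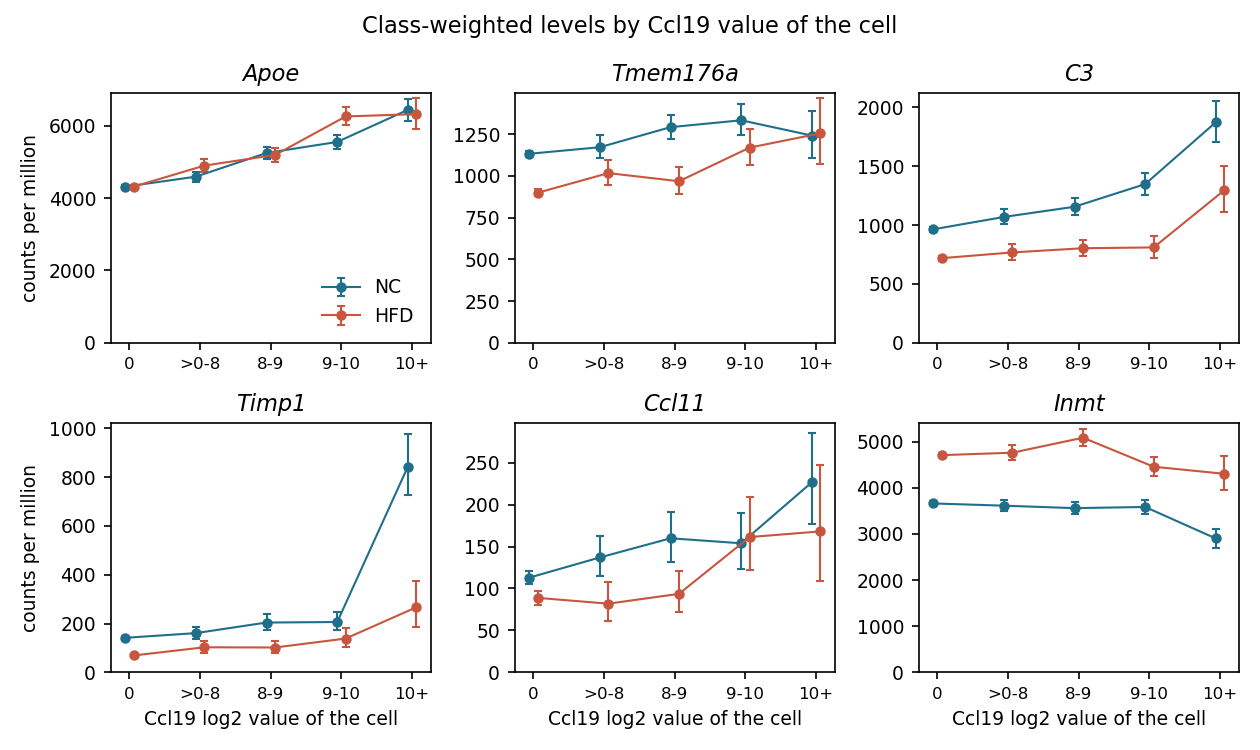
Level in CPM of 6 genes in cells binned by their Ccl19 log2 value, weighted to the class mix of the Ccl19-high cells; points are bin levels and lines are 95% intervals for counting error. Apoe goes from 4319 to 6448 CPM in NC and from 4321 to 6329 in HFD, C3 and Timp1 are highest in the bin of 10 and above, and Inmt is lowest there.

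Of 17 measured adventitial fibroblast markers 1 was higher and 2 lower in NC (median -0.06), and of 16 in HFD 1 was higher and 1 lower (median -0.26). In NC 7 had a ratio above 1 and 10 did not, and in HFD 4 did and 12 did not. Duct myofibroblast markers had medians of -0.05 and -0.04. Pi16, a peptidase inhibitor that marks adventitial fibroblasts, was at 105 against 200 CPM in NC (0.526, 0.421 to 0.650) and 106 against 233 in HFD (0.456, 0.342 to 0.596). Within the Pi16 class, where it is abundant, it was at 357 against 703 CPM in NC and 393 against 811 in HFD. The ratio of Pi16 in that class was 0.509 in NC and 0.485 in HFD. Fbln2, an elastic fibre protein gene, was at 34.04 against 65.2 CPM in NC (0.522, 0.348 to 0.755) and 24.6 against 67.7 in HFD (0.364, 0.192 to 0.631). Its ratio was below 1 in all 8 combinations of class and library. The whole interval was below 1 only in the Pi16 class of both libraries and in HFD Gas6 fibroblasts. No Ccl19-high cell had an Fbln2 count in myofibroblasts of either library or in HFD Asc1 and Gas6 fibroblasts. Some other adventitial genes were nearer to the Ccl19-zero level. Dcn, a small proteoglycan gene, had ratios of 1.10 and 0.942, and Mfap5, of elastic microfibrils, of 0.973 and 0.944. Cd34, a surface protein gene, was at 100 against 153 CPM in NC, past 1.5-fold lower. In HFD it was at 127 against 169 CPM, not past it. Fn1, the fibronectin gene, was at 336 against 513 CPM in NC (0.655) and 436 against 493 in HFD (0.885).

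Markers of alveolar fibroblasts were a little lower as a group. In NC none of 18 measured genes was above the Ccl19-zero level and 2 were past 1.5-fold lower, with a median of -0.27. In HFD 2 of 18 were above it and 1 was past 1.5-fold lower, with a median of -0.21. Npnt, the matrix ligand of integrin alpha 8, was at 762 against 912 CPM in NC (0.836) and 895 against 1051 in HFD (0.852). Itga8, that integrin, had ratios of 0.779 and 0.716, and Fgfr4, an FGF receptor gene, of 0.553 and 0.664. The median was below 0 in both libraries under each alternative that was run.

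By list medians, interferon-induced and antigen presentation genes stood above the Ccl19-zero level more in NC than in HFD. Of 24 measured interferon response genes, 8 were higher in NC and none lower, and 20 had a ratio above 1 (median 0.41). In HFD 2 of 21 were higher and 1 lower (median 0.06). The summed level of the list had close ratios in the largest class, Asc1, at 1.21 in NC and 1.22 in HFD. The NC and HFD ratios were 1.33 and 1.25 in Gas6 fibroblasts, 1.32 and 1.10 in Pi16 fibroblasts, and 1.04 and 0.901 in myofibroblasts. Gbp2, a guanylate-binding GTPase gene, was at 72.7 against 38.3 CPM in NC (1.90) and 48.5 against 32.2 in HFD (1.51, or 1.24 without its top cell). Irgm1, an immunity-related GTPase gene, was at 47.9 against 24.5 in NC (1.95) and 25.03 against 28.3 in HFD (0.885). Iigp1 was at 243 against 160 CPM (1.52) in NC and 165 against 168 in HFD (0.986).

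Of 13 MHC class I pathway genes, all had a ratio above 1 in NC, 2 of them past 1.5-fold (median 0.41), and 11 did in HFD, none past it (median 0.17). B2m, the light chain, was at 1035 against 758 CPM in NC (1.36, 1.27 to 1.46) and 817 against 669 in HFD (1.22, 1.10 to 1.35). Psmb8, an immunoproteasome subunit gene, was at 98.7 against 57.7 in NC (1.71) and 56.7 against 53.1 in HFD (1.07). The summed class I level had NC and HFD ratios of 1.14 and 1.13 in Asc1 and 1.46 and 1.22 in Gas6 fibroblasts. They were 1.23 and 1.10 in Pi16 fibroblasts and 1.08 and 1.03 in myofibroblasts. The difference between the libraries was not tested, because each diet had 1 library.

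**Figure D5:**
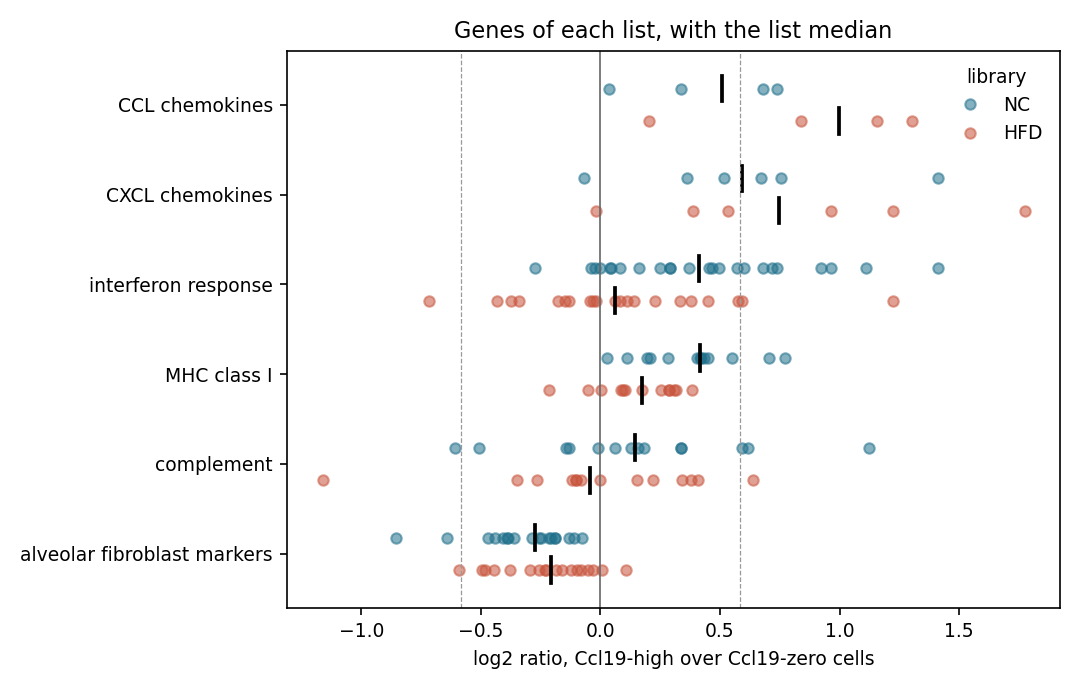
Each point is 1 measured gene of a list, placed by the log2 ratio of Ccl19-high over class-weighted Ccl19-zero cells, NC above and HFD below in each row; black bars are list medians and dashed lines mark 1.5-fold. The interferon response median is 0.41 in NC and 0.06 in HFD, and all 18 alveolar fibroblast markers lie below 0 in NC.

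Genes of lymphoid stroma other than Ccl19 were not a common feature. Of the measured members of this list, 1 of 14 was higher and 3 were lower in NC and none of 12 in either direction in HFD, with medians of 0.01 and 0.03. A ratio above 1 was seen for 7 of the 14 in NC and 6 of the 12 in HFD. Pdpn, Vcam1, Icam1 and Ch25h, given next, were above 1 in both libraries, and the 3 genes lower in NC are not among them. Pdpn, the surface glycoprotein of reticular cells, was at 54.0 against 50.5 CPM in NC and 44.6 against 42.2 in HFD. Vcam1, an adhesion molecule gene, had ratios of 1.19 (1.07 to 1.32) and 1.35 (1.18 to 1.54), and Icam1 of 1.17 and 1.12. Ch25h, which makes a precursor of a lymphocyte attractant oxysterol, had ratios of 1.59 and 1.36. Il7, a survival factor of T cells, was in 3 Ccl19-high cells of each library. Genes of NF-kB and lymphotoxin receptor signalling had medians of -0.002 in NC, with none of 15 past 1.5-fold, and 0.16 in HFD, with 2 of 13 higher, which were Birc3 (1.62) and Chuk (1.99).

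The 12 genes highest in NC were Jchain, Saa1, Cd74, Cxcl10, Timp1, H2-Q7, Cpz, Gbp6, Saa3, AW112010, Cfb and Plac8. In HFD 7 of them were also past 1.5-fold, although only 6 of the 12 were measured there and 4 of those 6 were past it. Of the 12 lowest in NC, 11 were measured in HFD and 2 were past 1.5-fold there, Pi16 and Fbln2. The unmeasured gene, Zbtb16, was at 0.527 in NC and 0.567 in HFD. Zbtb4 (0.423 in NC, 1.03 in HFD) and Tcim (0.441 and 0.845) were among those not past it in HFD. AW112010, an interferon-induced transcript, was at 171 against 76.8 CPM in NC (2.22) and 88.4 against 71.9 in HFD (1.23). The 10 genes whose share of positive cells was most raised in both libraries were C4b, Tmem176a, Gadd45g, Mt2, H2-T23, Cfb, Igfbp4, C3, Vcam1 and Timp1. Several of the highest genes rested on few cells. Saa3, an acute phase apolipoprotein gene, was in 10 NC and 8 HFD Ccl19-high cells, with ratios of 2.67 and 24.4 and 36.4% and 31.1% of the counts in 1 cell, without which they were 1.7002 and 16.9. Saa1 was in 3 NC cells.

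The highest ratio, that of Jchain, came from 1 cell. This NC Gas6 fibroblast held 841 Jchain counts, 30.8% of its 51087 counts were from B and plasma cell genes, and it had 33 Ccl19 counts. No doublet caller was run. Without it 128 genes were higher and 179 lower in NC, Cd74 was at 1.06 on the log2 scale in place of 2.11, and the interferon and MHC class I medians were 0.42 and 0.41. Of other cell types, Ptprc, Epcam, Pecam1, Cd3e and Ccr7 had no count in any Ccl19-high cell of either library. The summed level of the mature dendritic cell list was 162 CPM in NC members against 177 in Ccl19-zero cells and 154 against 178 in HFD. Pericyte markers summed to 253 against 333 and 305 against 423, with Vtn at 0 in both. The dendritic cell list was higher in both libraries, at 64.3 against 23.9 CPM in NC, with Itgax and Itgae at 0, and 27.4 against 9.36 in HFD, with Itgax and H2-Aa at 0. Much of this was Cd74 in single cells, since 1 cell held 81 of its 155 counts in NC and 27 of 28 in HFD. The macrophage and monocyte list was at 113 against 57.4 CPM in NC and 21.1 against 64.03 in HFD, with Ccr2, Marco, Chil3 and Siglecf at 0 in both. T cell markers were at 3.75 against 12.3 and 3.13 against 7.39, with 10 of 11 at 0 in each. The part of these cell types in the results was not tested.

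Between the diets, the Ccl19-high cells showed 594 of 5608 measured genes higher in HFD (10.6%) and 617 lower (11%), counts that compare 2 libraries and not diets. Several genes had a similar ratio in the Ccl19-zero cells. Hspa5, which encodes the chaperone BiP, was at 466 CPM in HFD and 1460 in NC Ccl19-high cells (0.319, 0.277 to 0.366) and at a ratio of 0.370 in Ccl19-zero cells. Mfap4, a microfibril protein gene, was at 2085 against 939 CPM (2.22), with 2.10 in Ccl19-zero cells. The glucocorticoid response list had a median of -0.92 and 8 of 12 genes lower, against -0.93 and 7 in Ccl19-zero cells.

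In the interferon response list the 2 sets of cells had different medians. In Ccl19-high cells 11 of 22 measured genes were lower in HFD and 2 higher (median -0.60), and in Ccl19-zero cells 2 were lower and none higher (median -0.06). Calls were fewer in Ccl19-zero cells over all genes too, with 161 higher and 180 lower of 5608, so the counts of the 2 sets of cells cannot be compared directly. Irgm1 was at 25.03 and 47.9 CPM (0.523), with 1.15 in Ccl19-zero cells. Iigp1 was at 165 and 243 CPM (0.680), with 1.05 in Ccl19-zero cells. MHC class I genes had a median of -0.34, with 3 of 13 lower, against -0.12 and 1 in Ccl19-zero cells. Cxcl10 was at 383 and 606 CPM (0.632), close to its ratio of 0.721 in Ccl19-zero cells.

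Of single genes, Pnmt, an N-methyltransferase gene, was at 84.1 CPM in HFD and 10.1 in NC Ccl19-high cells (8.33, 3.99 to 19.6), from 19 and 8 cells, with a ratio of 2.35 in Ccl19-zero cells. Tcap, a sarcomere protein gene, was at 101 and 13.6 CPM (7.47), with 3.52 in Ccl19-zero cells. Plac8 was at 16.0 and 81.4 CPM (0.197, 0.0841 to 0.403), with 0.751 in Ccl19-zero cells. Ptgs2, which encodes cyclooxygenase-2, was at 75.9 and 233 CPM (0.326), with 0.652 in Ccl19-zero cells. The other genes named as highest in HFD were Saa3, Mir682, Vps72, Slc6a6 and Lrat, with ratios from 2.26 to 4.96, and as lowest Jchain, Saa1, Errfi1, Ifi205 and Ep400, of which Jchain and Saa1 had no count in HFD members. Ccl19 itself was at 922 CPM in HFD and 1047 in NC members, which the rule shapes.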

How the data were processed

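Both libraries were made with the 10x Genomics Single Cell 3′ v3 kit, per the labels, and STAR and mm39 are named in the submitters' processing notes. How molecules were counted and how cells were filtered is not given in the sources used here. Per the file headers, each of the 2 deposited tables gives a total count per cell as an estimated count, mitochondrial and ribosomal shares as percent, and a class. The gene values are deposited on a log2 scale, which the values show to be log2(CPM + 1), since undoing the log gives values that sum to between 999981 and 1000020 in every cell. Multiplying back by the cell total gave whole counts, within 0.01, for 98.8% (HFD) and 99.0% (NC) of nonzero values. Symbols came from a table of identifiers and matched 20180 of 21014 genes. The 2 tables hold 6089 HFD and 8140 NC cells after the filters (12.7% and 9.71% left out), with median totals of 10045 and 7524 counts.

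CPM were computed from summed counts. Ccl19-zero cells were weighted to the classes of the Ccl19-high cells, and genes with an average of at least 20 CPM were measured. Rare genes gave a mean of 3.25 (HFD) and 2.66 (NC) counts per positive cell, so counts were divided by a variance factor of 4.85 and 3.98 before exact Poisson intervals were taken. The intervals were tested on simulated data, where some genes made without a difference also passed 1.5-fold, more of them in HFD, so counts of higher and lower genes include differences of counting error. Shares have Clopper-Pearson intervals. The members and gene lists were chosen with earlier results of these data known. Named genes were the 12 highest and 12 lowest of the NC library by the bound nearest to a ratio of 1, the 8 highest and lowest between diets, the 10 genes most raised in share of positive cells in both libraries, the given markers, and in each described list up to 5 members with the bound farthest from 1 plus members needed to read it; the ranking left out genes of ribosomal proteins, mitochondria, globins, antibodies and gene models without a name. The rule for genes sharing Ccl19 reads (a count in at least 50% of members and under 5% of Ccl19-zero cells) was chosen after seeing the data. Some genes are not reported here. Alternatives changed the threshold, filters, classes, scaling, weighting and minimum level. Python packages were numpy 2.4.6, scipy 1.17.1, pandas 2.3.3, scikit-learn 1.9.0 and matplotlib 3.10.9.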

Additional observations from a re-analysis of the deposited data

Results flagged for a closer look

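Plac8 stood on opposite sides of 1 in the 2 libraries, at 2.18 times the Ccl19-zero level in NC (81.4 against 37.3 CPM) and 0.573 times in HFD (16.0 against 28.0 CPM). In HFD it was in 7 Ccl19-high cells. Hp, the haptoglobin gene, was at 0.607 times in NC (15.9 against 26.2 CPM, 9 cells) and 2.71 times in HFD (33.2 against 12.2 CPM, 14 cells). With 1 library per diet neither difference was tested.

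The pericyte class, which the rule leaves out, also held cells with a Ccl19 value of at least 9. They were 16 of 596 pericytes in HFD, 2.68%, and 7 of 250 in NC, 2.80%.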

How the results depend on the processing

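No paired analysis was possible because each diet had 1 library. Of 415 alternative values of shares, counts and medians, 344 stayed within the range used for each: the main interval for a share, 1.5 times for a count, and the quartiles of the list's genes for a median. The stricter cell filter asks for 1000 detected genes and allows 5% mitochondrial counts. The effect of depth by expression level was not tested. Alternatives with the member cell of most counts or the cell rich in B and plasma cell genes left out were chosen after seeing the data.

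The share of Ccl19-high cells in HFD and NC was 9.61% and 11.2% at a threshold of 8, 1.44% and 2.15% at 10, 4.19% and 4.28% with at least 5 Ccl19 counts, 6.50% and 6.99% without the Asc1 class, 4.41% and 5.19% without the Pi16 class, and 10.5% and 12.4% for any count after thinning. In NC the counts of higher and lower genes were 35 and 37 at a threshold of 8, 510 and 620 at 10, 197 and 293 without the Asc1 class, 226 and 283 without the Gas6 class, 683 and 1033 from an average of 5 CPM, and 12 and 6 from 100 CPM. The higher count was 196 without the Pi16 class, and the lower count 280 with the stricter cell filter. In HFD they were 59 and 109 at a threshold of 8, 893 and 906 at 10, 973 and 1586 from 5 CPM, and 11 and 9 from 100 CPM. The higher count was 321 with the stricter cell filter, 398 without the Asc1 class and 343 without the Pi16 class. Between diets the counts higher and lower in HFD were 334 and 364 at a threshold of 8, 1254 and 1115 at 10, 1874 and 1797 from 5 CPM, and 89 and 85 from 100 CPM.

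The CXCL median in NC was 0.33 at a threshold of 8, 0.77 with at least 5 Ccl19 counts, 0.76 with the stricter cell filter, 0.74 without the Asc1 class and 0.40 without the cell rich in B and plasma cell genes. In HFD it was 0.36 and 1.27 at thresholds of 8 and 10, 1.22 with the stricter cell filter, and 1.22 without the Pi16 class. The CCL median was 0.039 in NC and 1.2 in HFD without the Pi16 class, and 1.21 in HFD with unweighted Ccl19-zero cells. In NC the MHC class I median was 0.59 at a threshold of 10, 0.45 with at least 5 Ccl19 counts and 0.47 without the Asc1 class, and the interferon median was 0.73 at 10. The alveolar median was -0.49 in NC and -0.40 in HFD at 10, and -0.55 and -0.51 unweighted. The adventitial median was 0.40 and 0.26 unweighted, and -0.021 in HFD without the Pi16 class. In HFD the NF-kB median was 0.48 at 10 and the lymphoid stroma median 0.25 unweighted. With 10 components, 8.20% of neighbours of NC Ccl19-high cells were Ccl19-high. The cause of these shifts was not tested.

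Of 119 named log2 ratios, 7 past 1.5-fold and 20 not past it changed sign under at least 1 alternative. The latter include Inmt, which reached 0.011 in NC and 0.0057 in HFD, Ccl2 in NC (-0.17), AW112010 (-0.24), Fn1 (0.020) and Igfbp4 (-0.013) in HFD. Those past 1.5-fold were, at a threshold of 10, those of Cxcl2 (-1.58) and Hp (0.57) in NC and of Sox9 (-1.83) in HFD. In NC they were also Saa3 with the stricter cell filter (-0.56), Cd74 without the Gas6 class (-2.83) and Ccl7 without the Pi16 class (-0.073). In HFD Cxcl2 was at -1.98 without the Asc1 class and at -0.057 without the member cell that held most of its counts.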
